A study of Mus musculus with 9 samples.

Results

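Resident macrophages of the mouse peritoneal cavity were compared with macrophages derived from recruited monocytes. The comparison took the 3 libraries titled as tissue resident and the 3 titled as monocyte derived, 6 of the 9 RNA-seq libraries of the series, and all genes. The 3 further libraries, of monocyte-derived cells left to convert in the tissue, entered the estimate of spread and are given only where they bear on a resident value. The cavity holds a self-renewing population of large macrophages, marked by high F4/80 and ICAM2 and governed by the transcription factor Gata6 together with retinoic acid. Irritants draw CCR2+ blood monocytes into the cavity, where they become macrophages with MHC class II and other features of young inflammatory cells. IL-4 drives macrophages of both origins into alternative activation, with arginase, Retnla and Chil3 as its best known products in mice, and can drive resident macrophages to divide.

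All mice carried Cx3cr1CreERT2-IRES-EYFP/+ and Rosa26-stopfl-tdTomato/+, so the inducible Cre and EYFP were under the control of the Cx3cr1 locus in every group. All were injected into the peritoneum with complexes of 5 µg IL-4 and 25 µg anti-IL-4 every other day, starting 4 days before harvest. The monocyte-derived group had 2 ml of thioglycollate, an irritant, on day 0 and was harvested on day 4. The resident group is given no further treatment in the labels, and the converted group had 2 ml of thioglycollate and was fed tamoxifen over 10 weeks. No age or sex is given in the labels. Effects of recent thioglycollate therefore cannot be told apart from cell origin. Macrophages were sorted by flow cytometry, with gates not given in the sources used here, and RNA was taken with the Mini or, for low cell numbers, the Micro RNeasy kit. Whether each library is a mouse of its own is not stated, so the p-values weigh differences only against library-to-library spread, which may be technical.

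The 6 libraries held 15220884 to 20396897 reads in genes, and 17871 to 19922 genes were read at least once. Both groups read as macrophages: Csf1r, the receptor of the growth factor that macrophages depend on, had 1158, 1073 and 1053 CPM in monocyte-derived libraries 1, 2 and 3 and 1114, 1064 and 1137 CPM in resident libraries 1, 2 and 3 (CPM, the reads of a gene per 1e6 reads in genes, on TMM-scaled library sizes). These levels overlapped. In the sentences that follow, the values of libraries 1, 2 and 3 are in that order, and where no group is named the monocyte-derived values come first and the resident values follow the word against. Other macrophage genes were less even than Csf1r. The 8 macrophage markers summed to 4093, 6748 and 5592 CPM in monocyte-derived and 7229, 6984 and 7293 CPM in resident libraries, without overlap. Of 24 tested pan-macrophage genes, 4 were higher in resident libraries, 11 lower and 9 not called. Gata6 (ENSMUSG00000005836, GRCm38 chromosome 18, 11052064 to 11085635) had 0.587, 2.08 and 1.62 CPM in monocyte-derived and 159, 163 and 159 CPM in resident libraries. Ccr2 (chromosome 9, 124101950 to 124113557), the receptor by which monocytes are recruited, had 1345, 464 and 662 CPM against 10.3, 9.65 and 11.7 CPM. Both separated the groups without overlap, Gata6 higher and Ccr2 lower in resident libraries. Cx3cr1 itself was near the floor in all 6 libraries, at 0.0979 to 0.427 CPM, and was not tested.

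Markers of other cells and other signals also differed between libraries, and their part in the results was not tested. The 6 defining B-cell markers, all read in both groups, summed to 12.4, 13.5 and 31.9 CPM in monocyte-derived, 38.3, 92.5 and 47.7 CPM in converted and 587, 636 and 778 CPM in resident libraries. Of 24 tested B-cell genes, 21 were higher in resident libraries and 1 lower. The 4 neutrophil markers summed to 18, 17.6 and 49.7 CPM in monocyte-derived and 1.98, 0.892 and 1.47 CPM in resident libraries. The 4 T-cell markers summed to 1.65, 1.33 and 7.12 CPM in monocyte-derived and 12, 9.34 and 18.1 CPM in resident libraries, without overlap, and 9 of 18 tested T-cell genes were higher and 2 lower (14 higher without monocyte-derived library 3, and 4 without resident library 3). The 4 dendritic cell markers summed to 10.5, 6.19 and 12.7 CPM in monocyte-derived and 5.01, 5.72 and 5.24 CPM in resident libraries, also without overlap. The wider list of 17 dendritic cell genes went the other way in sum, at 292, 228 and 299 CPM against 401, 392 and 382 CPM. Of its 16 tested genes 3 were higher, 6 lower and 7 not called. Cd209a, 1 of the 3 higher genes, went from a mean of 20.1 CPM in monocyte-derived to 172 CPM in resident libraries. That rise was larger than the rise in the mean sum of the list, from 273 to 392 CPM. The 4 NK-cell markers overlapped, and summed to 14.7, 23.4 and 87.4 CPM in monocyte-derived and 15.1, 13.1 and 20.7 CPM in resident libraries. Eosinophil-defining Epx and Prg2 had no read in either group, and mesothelial, fibroblast and endothelial markers summed to 3.93 CPM or less in each library. The Y-linked genes Ddx3y and Eif2s3y were at 0 reads in the monocyte-derived group, against 92.6, 93.4 and 85.9 CPM and 83.8, 78 and 70.1 CPM in resident libraries, while Xist, expressed from the inactive X, had 52.1, 41 and 101 CPM against 0, 0 and 0.0979 CPM. Sex and origin therefore cannot be told apart here. Immediate early genes, which respond within minutes to handling as well as to signals, summed to 3076, 3243 and 3522 CPM in monocyte-derived and 6416, 6445 and 6420.4 CPM in resident libraries. A number in the deposited names was shared within each group and differed between groups; what it stands for is not given in the sources used here.

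**Figure D1:**
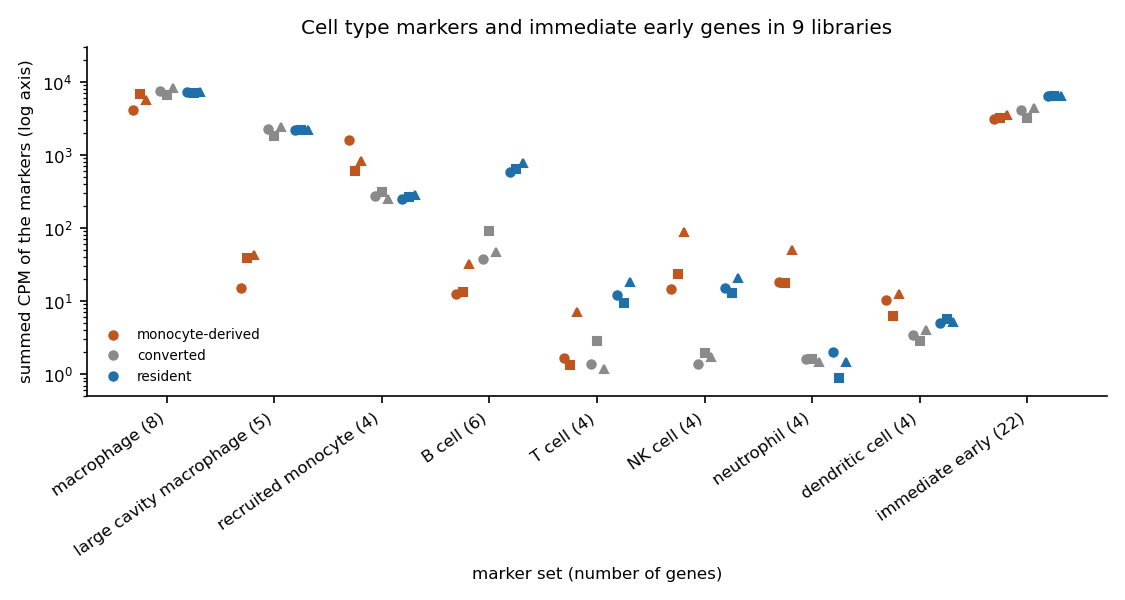
Summed CPM (log axis) of cell type markers and of 22 immediate early genes in each of the 9 libraries; orange points are monocyte-derived, grey converted and blue resident libraries, with circles, squares and triangles for libraries 1, 2 and 3, and the number of genes in parentheses. B-cell markers stand at 587 to 778 CPM in resident libraries, above the libraries of both other groups, and recruited monocyte markers at 594 to 1577 CPM in monocyte-derived libraries.

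Among 13223 genes tested, edgeR called 50.7% at an adjusted p under 0.05, with 25.7% higher and 24.9% lower in resident libraries (3400 and 3298 genes). Large changes were more often increases: 429 genes were at least 16-fold higher and 203 at least 16-fold lower. Over all tested genes the median log2 change was 0.000679, and 7872 genes (59.5%) had libraries that did not overlap between the groups. A gene list is therefore read here against a background in which a call is common. A list with about 25.7% higher and 24.9% lower does not stand out from it. For 3923 genes (29.7%) the 95% interval of the change lay within 1.5-fold in either direction. The summed B-cell genes separated resident libraries from both other groups, which overlapped, and so nearly follow the division between resident and monocyte-derived libraries. With these sums as a covariate, the median SE of a log2 change went from 0.168 to 0.807. Then 96 genes were called, 74 higher and 22 lower (77.1% higher, beside 50.8% without the covariate), and 1646 at an unadjusted p under 0.05. Of the 6698 calls, 93 were then called in the same direction and 1350 (20.2%) had the opposite sign.

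**Figure D2:**
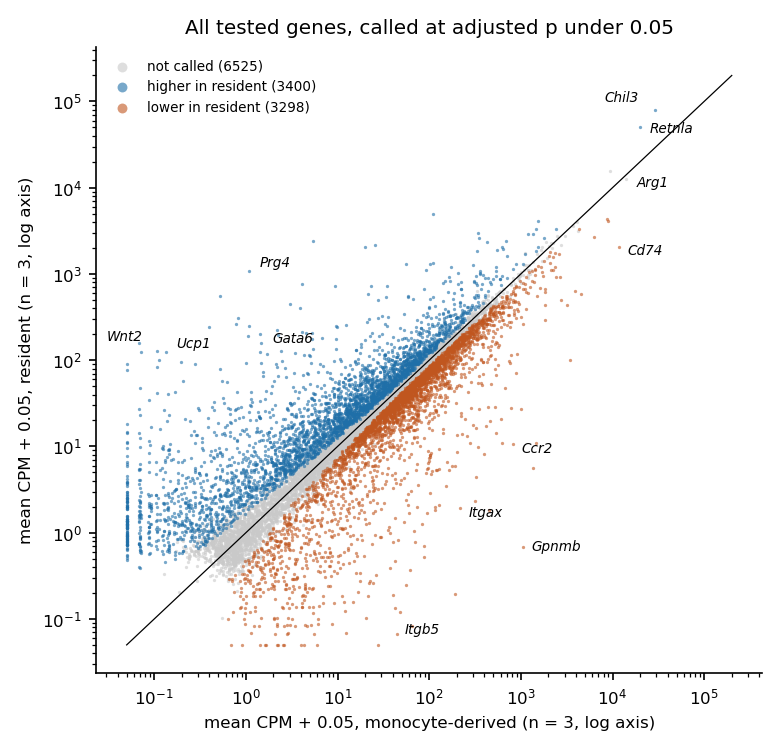
Mean CPM of each of the 13223 tested genes in 3 monocyte-derived (horizontal, log axis) and 3 resident libraries (vertical, log axis), with 0.05 added so that zeros can be drawn; blue and orange points are genes called higher or lower in resident libraries by edgeR and grey points are not called. Ucp1, Wnt2 and Prg4 lie far above the line of equal means, and Gpnmb, Itgb5 and Itgax far below it.

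Gata6, Irf7, Smad3 and Klf2 were higher in resident libraries, and Pparg, Egr2, Cebpa and Hif1a were lower. Of 59 tested macrophage transcription factor genes, 21 were higher and 26 lower. Gata6 was 113-fold higher (log2 6.82 ± 0.29 SE, adjusted p = 1.8e-07 by edgeR). Next to it stood Irf7, the regulator of interferon genes, with 8.32, 9.6 and 10.7 CPM in monocyte-derived and 316, 177 and 248 CPM in resident libraries, and Smad3, which carries TGF-beta signals, with 6.61, 5.61 and 9.19 CPM against 48.9, 51 and 54.6 CPM. Both were separate in every library, and Irf7 ranged widely among the resident ones. Rarb, a retinoic acid receptor, had 6.67, 22.7 and 23.5 CPM against 54.5, 52.1 and 47.2 CPM. Smaller increases were seen for Klf2, Klf4 and Cebpb, which shape myeloid cell maturation, at 3.08, 2.18 and 2.24-fold, and for Maf at 2.31-fold. The repressors of differentiation Id1, Id2 and Id3 were higher, Id2 from 111, 128 and 146 CPM to 332, 386 and 323 CPM.

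Pparg, the nuclear receptor of lipid-handling macrophages, had 50.2, 99.9 and 102 CPM in monocyte-derived and 1.65, 0.734 and 1.22 CPM in resident libraries, 69.6-fold lower (log2 -6.12 ± 0.40 SE, adjusted p = 2.43e-06 by edgeR). Egr2, which IL-4 induces, had 153, 168 and 209 CPM against 5.23, 7.08 and 5.58 CPM, and Batf3, a partner of AP-1 factors, 81.1, 83.1 and 74.4 CPM against 11.8, 9.91 and 8.76 CPM. No resident library reached any monocyte-derived library for these genes. Cebpa was 5.12-fold lower beside the higher Cebpb, Hif1a, which drives the response to low oxygen, 3.65-fold lower, and Irf8, needed for monocyte development, 2.41-fold lower. Egr1 went the other way from Egr2, with 51.8, 40.2 and 50.6 CPM against 137, 148 and 141 CPM, as did most immediate early genes (13 of 21 tested higher, 4 lower, or 2 lower without monocyte-derived library 3 or resident library 1). The lineage factor Spi1, which encodes PU.1, was not called, at 323, 382 and 374 CPM against 410.4, 386 and 379 CPM, with a 95% interval of -0.09 to 0.34 on the log2 scale. Stat6, which carries the IL-4 signal, was 1.25-fold lower (adjusted p = 0.00251 by edgeR), and its receptor chain Il4ra, at 198, 175 and 149.5 CPM against 139, 138 and 167 CPM, was not called (adjusted p = 0.117, and 0.0313 with a log2 change of -0.34 without monocyte-derived library 3).

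**Figure D3:**
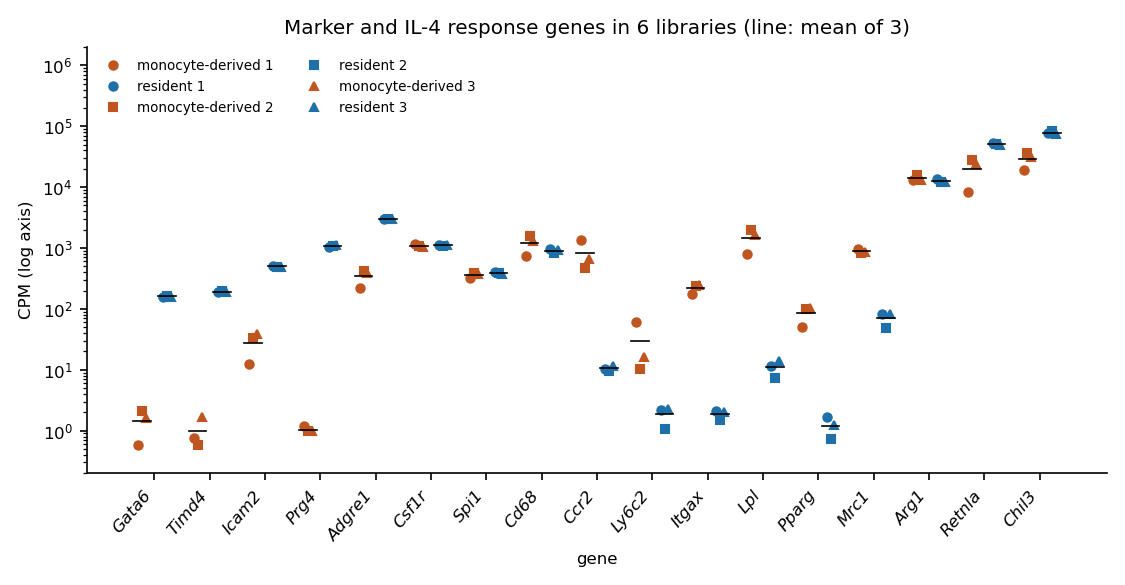
CPM (log axis) of markers and IL-4 response genes in monocyte-derived (orange) and resident (blue) libraries 1, 2 and 3 (circles, squares, triangles), with a line at the mean of 3. Gata6, Timd4, Icam2, Prg4 and Adgre1 are higher in resident libraries, Ccr2, Ly6c2, Itgax, Lpl, Pparg and Mrc1 are lower, and Csf1r, Spi1, Cd68 and Arg1 overlap.

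Of 38 tested genes of resident cavity macrophages, 32 were higher and 1 lower (Cav1), with a median log2 change of 4.02. The list was chosen for this cell type, so its direction is not independent evidence. Adgre1, which encodes F4/80, had 224, 421 and 385 CPM in monocyte-derived and 2946, 3011 and 2978 CPM in resident libraries, 8.68-fold higher. Icam2, an adhesion molecule, had 12.3, 33 and 37.9 CPM against 508, 495 and 487 CPM, and Prg4, the lubricant proteoglycan of cavities, 1.17, 0.983 and 0.971 CPM against 1047, 1063 and 1119 CPM. Prg4 had the smallest adjusted p of all genes (log2 10.00 ± 0.22 SE, adjusted p = 1.24e-08 by edgeR). Members not called included Fn1, fibronectin, at 3858, 4193 and 4189 CPM against 3359, 4231 and 4317 CPM, and Lyve1, at 70.0, 157 and 140.3 CPM against 142, 72.4 and 131 CPM, which overlapped.

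The genes with the smallest adjusted p, apart from those on chromosome Y, were not the classical markers alone. Garnl3, which acts on the small GTPase Rap, had 1.01, 0.636 and 1.42 CPM against 231, 278 and 247 CPM, and Rasgrp2, which activates Rap, 18.2 ± 1.57 CPM against 154 ± 4.29 CPM (mean ± SD, n = 3). By the same measure Khk, the enzyme that begins fructose breakdown, had 10.9 ± 1.22 CPM against 97.2 ± 1.43 CPM, Ryk, a receptor of Wnt ligands, 3.01 ± 0.197 CPM against 32 ± 1.22 CPM, and Dpysl3, a regulator of the cytoskeleton, 1.37 ± 0.448 CPM against 126 ± 8.1 CPM. The SE of the log2 change was 0.09 for Khk and 0.11 for Ryk, while Garnl3 and Dpysl3 varied more among the monocyte-derived libraries, where both were low. Among decreases, Sulf2, which trims heparan sulphate, had 245, 216 and 229 CPM against 15.2, 11.5 and 14.6 CPM, Rab7b, a GTPase of late endosomes, 136, 158 and 149 CPM against 25.5, 24 and 24.6 CPM, and Vdr, the vitamin D receptor, a mean of 116 ± 14.7 CPM against 1.8 ± 0.158 CPM. Fkbp1a, which binds type I receptors of TGF-beta, had 496, 534 and 540.4 CPM against 33.4, 23.1 and 28.9 CPM, and its 18.4-fold decrease was among the most precise (log2 -4.20 ± 0.14 SE, adjusted p = 3.06e-08 by edgeR).

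Several genes with almost no read in the monocyte-derived libraries were plainly expressed in resident ones. Wnt2, a secreted Wnt ligand, had 0.0533, 0.116 and 0 CPM against 128, 137 and 114 CPM, a ratio of 2166 with a 95% counting interval of 741 to 10508. Ucp1, the uncoupling protein known from brown fat (chromosome 8, 83290352 to 83298452), had 0, 0.0578 and 0.194 CPM against 115, 149 and 108 CPM, 1464-fold higher (log2 10.52 ± 0.35 SE). Its relative Ucp2 was at 1263, 1033 and 1098 CPM against 1236, 1292 and 1253 CPM and was not called (adjusted p = 0.252 by edgeR). Kcnn3, a calcium-activated potassium channel, had 0, 0.173 and 0 CPM against 78.7, 88.9 and 83.5 CPM, and Timd2, a receptor of the TIM family, 0.0533, 0 and 0 CPM against 170.4, 168 and 136 CPM. Gbp2b, a guanylate-binding protein, went from 0.373, 0.462 and 0.583 CPM to 546, 594 and 524 CPM. In all of these the groups were far apart, and the size of the fold rested on the few reads of the monocyte-derived libraries: without library 1 of that group Ucp1 had a log2 change of 9.91 and without library 3 11.81, Wnt2 had 11.79 without library 2, Kcnn3 9.73 and 13.61 without libraries 1 and 2, and Timd2 14.51 without library 1. Resident and converted libraries differed for Wnt2 (converted 64.4, 46.8 and 55.1 CPM, adjusted p = 0.0025) and Timd2 (51.2, 92.7 and 79.5 CPM, adjusted p = 0.0141) and were not called apart for Ucp1 (97.8, 78.9 and 77.1 CPM, adjusted p = 0.0969).

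Receptors for dying cells and microbes split between the groups. Of 28 tested scavenger and dying-cell receptor genes, 12 were higher and 10 lower. Timd4, which binds phosphatidylserine, had 0.747, 0.578 and 1.68 CPM in monocyte-derived and 190.4, 199 and 187 CPM in resident libraries, and Cd5l, a secreted scavenger protein, 4.96, 48.2 and 23.6 CPM against 2299.8, 2062 and 2096 CPM. The spread of Cd5l among monocyte-derived libraries was wide, and its log2 change of 6.40 was 7.28 without library 2. Mertk and Axl, receptor kinases that clear dying cells, were 1.91 and 1.89-fold higher and their bridging ligand Pros1 2.79-fold. Msr1, a class A scavenger receptor, rose 3.92-fold, while Cd36, the class B receptor for oxidised lipid, had 336, 1470.5 and 897 CPM in monocyte-derived and 108, 129.8 and 117 CPM in resident libraries. The integrin chain Itgb5, used to take up dying cells, had 40.0, 53 and 39.7 CPM against 0, 0 and 0.0489 CPM, a total of 1 read over the resident libraries and a ratio of 2554 between the groups, with a 95% counting interval of 458 to 100914. Its log2 change of -10.84 was -12.65 without resident library 3, which held that read.

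C-type lectins changed in both directions, with 7 of 20 tested higher and 9 lower. Clec7a, the receptor for fungal beta-glucan also called dectin-1, had 642, 597 and 633 CPM in monocyte-derived and 10.6, 8.18 and 14.2 CPM in resident libraries, 56.6-fold lower (adjusted p = 4.03e-07 by edgeR). The mannose receptor Mrc1 had 949, 839 and 870.1 CPM against 81.6, 48.4 and 83.9 CPM. Both were even among monocyte-derived libraries. Against them stood the DC-SIGN family, which binds mannose-rich glycans: Cd209b had 0.0533, 0.116 and 0 CPM against 43, 40.8 and 42.7 CPM, Cd209d 0.907, 1.56 and 1.94 CPM against 70.5, 53.5 and 71.7 CPM and Clec4g, a relative found in liver sinusoids, 0, 0.116 and 0.324 CPM against 102, 95.8 and 88.8 CPM. These 3 lectins were also higher in resident than in converted libraries, which had 0.0997, 7.67 and 1.8 CPM of Cd209b, 1.69, 17.4 and 7.48 CPM of Cd209d and 4.44, 11.9 and 14.7 CPM of Clec4g (adjusted p = 0.0219, 0.0214 and 0.0025 by edgeR). B-cell markers separated the resident libraries in the same way. The log2 change of Clec4g, 9.38, was 8.75 and 10.58 without monocyte-derived libraries 1 and 3, and that of Cd209b, 9.34, was 10.21 without library 2.

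Complement genes were mostly higher, 14 of 19 tested, with 4 lower and a median log2 change of 1.15. The classical pathway component C4b had 9.81, 22.5 and 27.7 CPM in monocyte-derived and 1958, 2227 and 2011 CPM in resident libraries, 104-fold higher. C3, on which all pathways converge, had 432, 262 and 296 CPM against 1694, 2114 and 1684 CPM, and the C1q chain C1qb 980.0, 1587 and 1492 CPM against 3026, 2685 and 2971 CPM. Vsig4, the receptor for C3 fragments on tissue macrophages, had 0.213, 1.97 and 0 CPM against 278, 247 and 259.5 CPM, with a log2 change of 8.46 that was 11.06 without monocyte-derived library 2. The receptors for the soluble fragments went down, C5ar1 from 301, 306 and 261 CPM to 107, 96.8 and 117 CPM and C3ar1 1.92-fold. Among the complement receptor integrins, Itgam rose 2.22-fold and Itgax, which encodes CD11c, had 177, 233 and 247 CPM in monocyte-derived and 2.09, 1.47 and 2.06 CPM in resident libraries, 117-fold lower (log2 -6.86 ± 0.25 SE, adjusted p = 6.31e-08).

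Adhesion genes outside these also moved. Of 30 tested, 13 were higher and 12 lower. Selp, P-selectin, had 26.8, 29.7 and 35 CPM in monocyte-derived and 303, 321 and 360.0 CPM in resident libraries, and its ligand Selplg 3.63-fold more in resident ones. The integrin chains Itga6 and Itgb7 rose 6.6 and 6.94-fold, and Itgb1, which pairs with many alpha chains, 2.26-fold. Itgb3 fell from 81.4, 143 and 132 CPM to 20.1, 29.3 and 27.5 CPM and Itgav, its partner, 1.56-fold. Itgb2, the chain shared by Itgam and Itgax, was not called, at 1731, 1886 and 1521 CPM against 2093, 2109 and 1976 CPM.

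Coagulation genes showed no common direction, with 6 of 19 tested higher and 7 lower. Serpinb2, an inhibitor of plasminogen activators, had 2.13, 7.34 and 6.54 CPM in monocyte-derived and 2554, 2539.7 and 2185 CPM in resident libraries, and F5, coagulation factor V, 17.7, 23 and 21.6 CPM against 251, 283 and 292 CPM. Both were even across the resident libraries, and F5 had a log2 change of 3.73 ± 0.12 SE. F13a1, the factor that cross-links fibrin, fell from 121, 92.4 and 141 CPM to 5.01, 3.2 and 7.44 CPM, and F7, which starts the extrinsic pathway, from 321, 669 and 582 CPM to 168, 139 and 159.7 CPM. F10 was called 1.24-fold higher.

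Genes of TGF-beta signalling changed one by one: 10 of 28 tested were higher and 12 lower. Tgfb2 had 0.213, 0 and 0.0647 CPM in monocyte-derived and 40.5, 46.6 and 35.5 CPM in resident libraries, while Tgfb1 was 1.92-fold lower, from 302, 264 and 245 CPM to 134, 142 and 146 CPM. Per kilobase of exon, Tgfb1 had 53.6 CPM in monocyte-derived and 27.9 in resident libraries, and Tgfb2 0.016 and 7.06, so Tgfb1 remained the higher of both in resident libraries. Ltbp1, which stores latent TGF-beta in the matrix, had 0.693, 0.289 and 0.0647 CPM against 210.2, 262 and 250.2 CPM, and Bmp6 no read in monocyte-derived and 14.3, 16.2 and 13.5 CPM in resident libraries, at least 251-fold higher. The type II receptor Tgfbr2 rose 2.12-fold, and the type I receptor Acvrl1, which answers to BMP9, had 53.4, 52.3 and 51.9 CPM against 1.6, 1.26 and 0.979 CPM, the decrease largest against its error (log2 -5.36 ± 0.16 SE, adjusted p = 2.65e-08 by edgeR). The negative regulators Skil and Smad7, known targets of the pathway, were 7.76 and 5.6-fold lower. Without monocyte-derived library 1 the log2 changes of Tgfb2 and Ltbp1 were 10.09 and 10.31, from 8.62 and 9.33.

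Retinoid genes were higher for 8 of 15 tested and lower for 3, or 5 when monocyte-derived library 1, converted library 1 or converted library 2 was left out. The retinoic acid-degrading enzymes Cyp26a1 and Cyp26b1, which retinoic acid itself induces, had 0, 0.116 and 0 CPM and 0.16, 0.116 and 0 CPM in monocyte-derived and 7.26, 10.2 and 7.78 CPM and 2.59, 1.47 and 1.66 CPM in resident libraries. Rdh12, a retinol dehydrogenase, rose 13-fold. The reductase Dhrs9 fell from 133, 253 and 212 CPM to 9.52, 7.5 and 8.91 CPM. Aldh1a2, the enzyme that makes retinoic acid, was not called, at 171, 182 and 239.8 CPM against 103, 81.8 and 99.3 CPM (adjusted p = 0.0642 by edgeR).

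Several eicosanoid enzymes rose in resident libraries. Of 23 tested genes of these lipid mediators, 10 were higher and 8 lower. Alox15, a lipoxygenase of resolving inflammation, had 147, 85.3 and 96 CPM in monocyte-derived and 5087, 5346 and 4425 CPM in resident libraries, 45.3-fold higher (adjusted p = 7.48e-08 by edgeR). Alox5, which begins leukotriene synthesis, had 11.4, 29.4 and 23 CPM against 583, 594 and 584 CPM, and Ltc4s, which makes leukotriene C4, 5.54-fold more. Ptgis, prostacyclin synthase, had 0.213, 1.16 and 0.971 CPM against 307, 348 and 266 CPM, and the cyclooxygenase Ptgs1 223, 399.9 and 459 CPM against 1101, 1016 and 1151 CPM. Receptors and 1 competing enzyme went down: the leukotriene B4 receptor Ltb4r1 had 571, 227 and 232 CPM against 10.4, 10.3 and 8.42 CPM, the prostaglandin E2 receptor Ptger2 163, 114 and 111 CPM against 6.44, 4.25 and 5.68 CPM, and thromboxane synthase Tbxas1 was 2.39-fold lower.

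Genes of monocytes and recruited macrophages fell for 13 of 22 tested and rose for 6. Ccr2 was 78-fold lower (log2 -6.29 ± 0.40 SE, adjusted p = 2.07e-06 by edgeR). Ly6c2, the monocyte surface antigen, had 61.7, 10.3 and 16.4 CPM in monocyte-derived and 2.2, 1.05 and 2.3 CPM in resident libraries, with library 1 of the former standing out: its log2 change was -3.99, and -2.85 without that library. Gpr141, an orphan receptor of myeloid cells, had 59.6, 27.9 and 38.5 CPM against 0, 0.105 and 0.147 CPM. Its log2 change of -8.82 was -9.44 without resident library 3. The higher members included Lyz1, Plac8, Ifitm6, Ms4a8a and Chil3. Plac8 had 6.35, 3.76 and 5.5 CPM in monocyte-derived, 34.8, 32.6 and 39 CPM in resident and 3.64, 9.56 and 2.98 CPM in converted libraries. Like the B-cell markers, it was higher in resident than in converted libraries (adjusted p = 0.00511).

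Antigen presentation by MHC class II fell for 10 of 17 tested genes and rose for 4. Cd74, the invariant chain, had 13028, 9653 and 12474 CPM in monocyte-derived, 1862, 1909 and 2434 CPM in resident and 964, 830.5 and 734 CPM in converted libraries. H2-Ab1, a chain of the presenting molecule, had 4897, 3603 and 5053 CPM in monocyte-derived, 538, 547 and 653 CPM in resident and 403, 315 and 305 CPM in converted libraries. For both genes the resident libraries lay between both other groups. The 4 higher genes were H2-Ob, H2-Oa, H2-Eb2 and Cd80, of which H2-Oa and H2-Ob are best known from B cells. H2-Ob had 12.6, 4.74 and 9.65 CPM in monocyte-derived, 32.9, 36.6 and 45 CPM in resident and 5.08, 9.25 and 5.96 CPM in converted libraries. In all, 8 of the 17 genes were higher in resident than in converted libraries, against 6.07% of all tested genes called between these groups in either direction. B-cell marker sums differed between them too, as given above. Class I genes moved the other way, with 12 of 22 tested higher and 2 lower: B2m, the light chain, had 1194, 1679 and 1568 CPM in monocyte-derived and 3596, 3123 and 3203 CPM in resident libraries, and H2-K1 and H2-D1 were 1.5 and 1.39-fold higher.

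Chemokines mostly fell, 13 of 22 tested, with 7 higher and a median log2 change of -1.87. The monocyte attractants Ccl2 and Ccl7 had 224, 393 and 234 CPM and 256, 459 and 262 CPM in monocyte-derived libraries and 27.2, 24.1 and 31.3 CPM and 3.47, 3.88 and 5.87 CPM in resident ones. Ccl24, an eosinophil attractant induced by IL-4, had 4755, 2813 and 2789.7 CPM against 124, 70.2 and 109.9 CPM. All 11 CC chemokines that were called were lower, while 7 CXC chemokines were higher, Cxcl2, which draws neutrophils, with 5.97, 11 and 12.2 CPM against 265, 219 and 246 CPM and the platelet factor Pf4 with 5.01, 57.2 and 36.6 CPM against 299, 221 and 270.2 CPM. Cxcl1 had 0, 0.462 and 0 CPM against 65.6, 37.2 and 67.5 CPM. Its log2 change of 8.45 was 7.82 and 13.05 without monocyte-derived libraries 1 and 2, and that of Pf4, 3.00, was 3.70 without library 2. The CXC genes Cxcl14 and Cxcl16 were lower, by 2.16 and 2.14-fold. Receptors fell with 10 of 19 tested lower and 3 higher, and the 3 were the scavenging receptor Ackr3 (1.39, 0.809 and 1.88 CPM against 184, 223 and 191 CPM), the sphingosine phosphate receptor S1pr1 (0.64, 1.45 and 5.96 CPM against 61.2, 64.8 and 67.1 CPM) and the chemerin receptor Cmklr1 (6.83, 4.68 and 3.63 CPM against 37.6, 31.6 and 38.7 CPM). For S1pr1 the log2 change of 4.64 was 5.96 without monocyte-derived library 3.

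Cytokines divided as well, with 9 of 26 tested higher and 11 lower. The inflammatory cytokines Il1b and Tnf were low throughout, at 1.6, 3.41 and 8.42 CPM and 4.75, 3.58 and 4.86 CPM in monocyte-derived and 0.385, 0.21 and 0.538 CPM and 0.275, 0.315 and 0.783 CPM in resident libraries, and were called lower. Il18, stored as a precursor in resting macrophages, rose from 1.33, 3.3 and 3.3 CPM to 20.7, 22.2 and 19.1 CPM and Il6 from 7.36, 7.52 and 12.7 CPM to 43, 53.5 and 46.2 CPM. The angiogenic factor Vegfa fell from 51.5, 116 and 150.5 CPM to 5.89, 5.4 and 3.96 CPM, the EGF-like factor Hbegf from 83.6, 64.8 and 78.7 CPM to 2.75, 3.46 and 4.41 CPM, and the IL-1 receptor antagonist Il1rn from 44.8, 123 and 117 CPM to 6, 5.19 and 4.89 CPM. Igf1 was 4.12-fold lower. Of 32 tested cytokine receptors 15 were not called, among them Csf1r (95% interval -0.16 to 0.19 on the log2 scale) and the GM-CSF receptor chain Csf2ra, while the interferon-gamma receptor chain Ifngr1 had 578, 573 and 596 CPM against 154, 152 and 147 CPM and the ST2 receptor Il1rl1 54, 93.1 and 95.5 CPM against 219, 255 and 225 CPM.

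The alternative activation list fell for 27 of 38 tested genes and rose for 6, with a median log2 change of -1.98, although all mice had IL-4. The most abundant products did not follow the list. Per kilobase of exon, Retnla had a mean level of 32895 CPM in monocyte-derived and 85042 CPM in resident libraries, and Chil3 17658 and 48264 CPM, while Arg1 had 6302 and 5653 CPM. Chil3 had 19382, 35772 and 31300.5 CPM against 78009, 84671 and 73618 CPM, 2.73-fold higher in resident libraries. Retnla had 8186, 27387 and 23539.7 CPM against 52145, 50666 and 50009 CPM, 2.59-fold higher (adjusted p = 0.0122 by edgeR, and 0.0662 with no filter on low counts). The monocyte-derived libraries differed among themselves by more than the resident ones for both. Arg1 had 12926, 16017 and 13178 CPM against 13681, 11951 and 12155 CPM, overlapped and was not called (log2 -0.16 ± 0.12 SE, adjusted p = 0.298). Among the lower members, Pdcd1lg2, the checkpoint ligand PD-L2, had 72.2, 104 and 121 CPM against 9.19, 4.3 and 8.66 CPM, Tgm2, a transglutaminase, 949.6, 675 and 592 CPM against 97.7, 86.4 and 112 CPM, and Cdh1, E-cadherin, 609, 315 and 324 CPM against 14, 18.1 and 20.2 CPM. Ear2 fell from 815, 723 and 782 CPM to 30.0, 21.2 and 31.2 CPM (adjusted p = 2.99e-08), and it was lower still in converted libraries, at 2.29, 2.78 and 2.36 CPM (adjusted p = 2.43e-05 against resident). The suppressors of cytokine signalling Socs1, Socs2 and Cish were 4.95, 9.96 and 3.78-fold lower. Letters TTC and GAA 4 bases apart, the half-site pair that STAT6 binds, were in the RefSeq promoter (GRCm38.p6, 250 bases before to 50 after the start, both strands) of 7 of 26 members with an entry. They were in 25.7% of the members' promoters and 6.95% of all 32851 promoters, a description of these windows and not of binding.

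**Figure D4:**
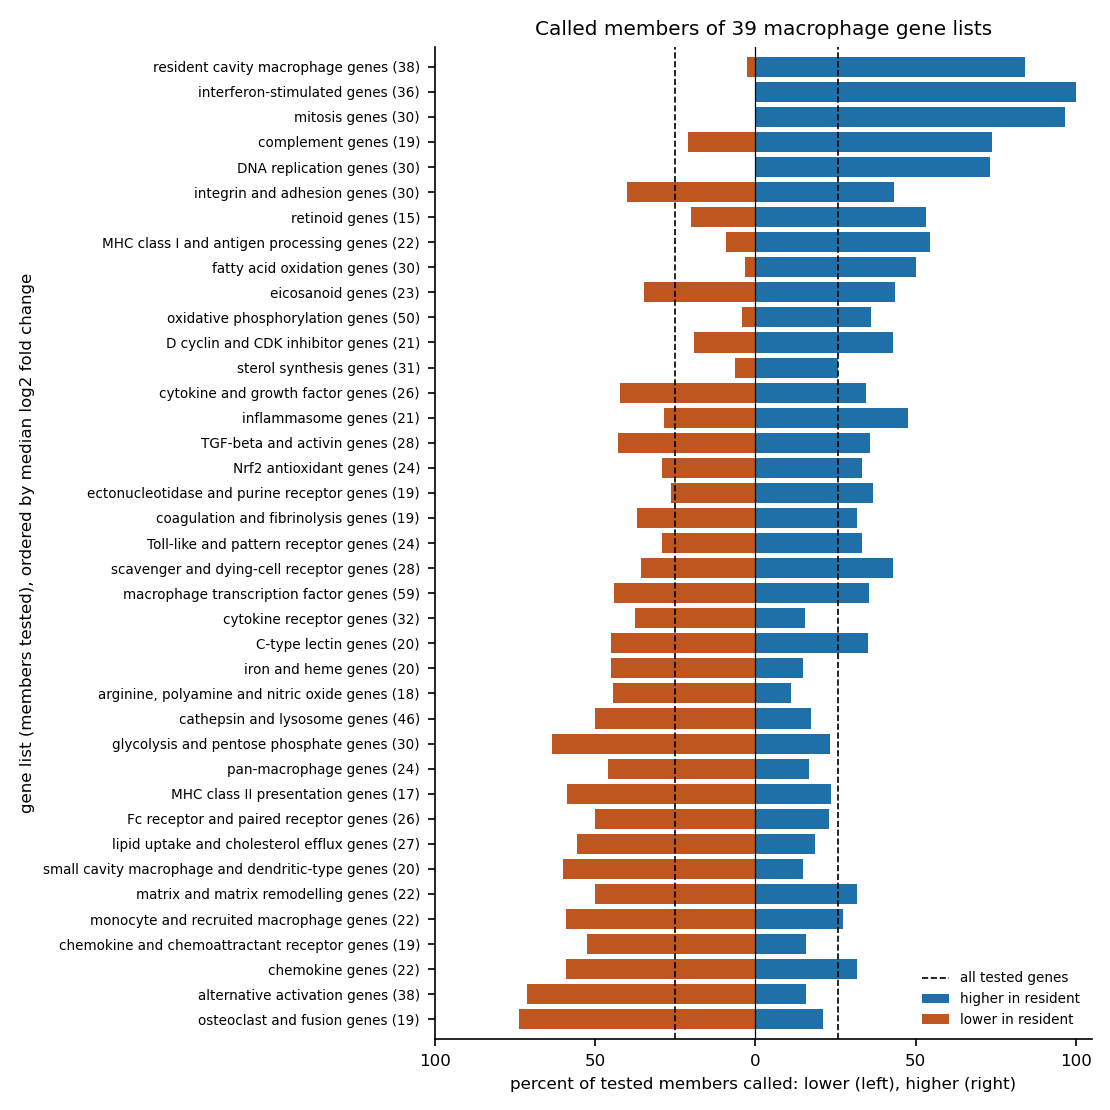
Percent of tested members of 39 macrophage gene lists that edgeR called higher (blue, right) or lower (orange, left) in resident libraries; lists are ordered by their median log2 change, the number tested is in parentheses, and dashed lines show 25.7% higher and 24.9% lower over all 13223 genes. Interferon-stimulated, mitosis and resident cavity genes extend right, and osteoclast and fusion, alternative activation and glycolysis genes extend left.

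Genes of cell fusion, lysosomes and lipid uptake fell more often than they rose. The osteoclast and fusion list was lower for 14 of 19 tested genes and higher for 4, with a median log2 change of -2.21. Gpnmb, a glycoprotein of lipid-laden macrophages (chromosome 6, 49036546 to 49070929), had 123, 2067 and 982 CPM in monocyte-derived and 1.43, 0.21 and 0.245 CPM in resident libraries (log2 -10.74 ± 1.36 SE, adjusted p = 0.000162 by edgeR). Ctsk, the collagen-degrading cathepsin of osteoclasts, had 25.3, 342 and 200.1 CPM against 0.385, 0 and 0.0489 CPM (adjusted p = 0.000112 in the edgeR fit, 0.0812 with limma-voom). The groups did not overlap, but the monocyte-derived libraries spanned more than 10-fold for both. Tm4sf19, a tetraspanin-like protein, had 6.56, 48.1 and 28 CPM and no read in any resident library, at least 518-fold lower (adjusted p = 0.00225, and 0.109 with no filter on low counts). Dcstamp and Ocstamp, needed for cell fusion, had 12.5, 51.7 and 55.4 CPM and 55.8, 52.2 and 58.9 CPM in monocyte-derived libraries and 0.11, 0.21 and 0.0979 CPM and 0.11, 0 and 0.489 CPM in resident ones. Ocstamp was even across the monocyte-derived libraries while Dcstamp was lowest in library 1. Atp6v0d2, a proton pump subunit, had 126, 762 and 473 CPM against 2.2, 0.892 and 2.3 CPM. Without monocyte-derived library 2 the log2 changes of Gpnmb, Ctsk, Tm4sf19 and Atp6v0d2 were -9.78, -9.57, -11.31 and -7.35, without resident library 1 those of Gpnmb and Ctsk were -12.13 and -12.52, and without resident library 3 that of Ocstamp, -8.02, was -9.84.

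Cathepsin and lysosome genes were lower for 23 of 46 tested and higher for 8, with 15 lower without resident library 2 or 3. Their changes were modest for the abundant members: Ctsb had 4646, 13054 and 9335 CPM in monocyte-derived and 4440.4, 3738 and 4124 CPM in resident libraries, 2.2-fold lower, and Psap, the saposin precursor, 1.99-fold lower. Cd63, a membrane protein of late endosomes, fell further, from 123, 668 and 394 CPM to 9.24, 6.92 and 8.22 CPM, with a log2 change of -5.60 that was -4.97 without monocyte-derived library 2. Ctsf rose from 0.8, 1.1 and 2.2 CPM to 23.9, 21 and 19.5 CPM. Of the genes of lipid uptake and cholesterol efflux, 15 of 27 tested were lower and 5 higher. Lpl, lipoprotein lipase, had 811, 1984 and 1638 CPM against 11.6, 7.34 and 14 CPM, 134-fold lower, and Soat1, which esterifies cholesterol, 297, 451 and 407 CPM against 64.6, 79.4 and 64.9 CPM. Lpl was higher in converted than in resident libraries, at 122, 29.4 and 99.6 CPM (adjusted p = 0.0144 by edgeR). Apoe, which carries cholesterol out of cells, rose from 43.2, 138 and 125 CPM to 508, 440.2 and 587 CPM. In the matrix list 11 of 22 tested were lower and 7 higher. The elastase Mmp12 had 262, 2141 and 1708 CPM against 6.16, 4.56 and 5.92 CPM and its inhibitor Timp1 168, 90.6 and 87.9 CPM against 4.4, 0.157 and 1.17 CPM, while Timp2 was 3.43-fold higher and thrombospondin, Thbs1, had 48.7, 107 and 151 CPM against 918, 1604 and 1437 CPM. The log2 change of Timp1, -5.94, was -7.39 without resident library 1.

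Of 30 glycolysis and pentose phosphate genes tested, 19 were lower and 7 higher. The glucose transporter Slc2a1 had 159.6, 209 and 216 CPM in monocyte-derived and 55.5, 41.5 and 45.4 CPM in resident libraries, and Hk2, the inducible hexokinase, 43.6, 71 and 75.8 CPM against 17.5, 17.3 and 15.7 CPM. Eno2, an enolase, fell 26.6-fold. Isozymes moved apart: Pfkp fell 3.96-fold and Pfkl rose 1.69-fold, and Hk1 rose 1.56-fold. Taldo1, of the pentose phosphate pathway, rose from 370.5, 274 and 289.9 CPM to 821, 825 and 762 CPM, and Gapdh, at 926, 952 and 916 CPM against 1023, 919.9 and 1014 CPM, was not called (95% interval -0.10 to 0.27 on the log2 scale). Among the 50 genes of oxidative phosphorylation edgeR called 18 up and 2 down, none by 2-fold, and 30 had an interval within 1.5-fold. For fatty acid oxidation 15 of 30 were higher and 1 lower, Acsl4, with Acaa2, a thiolase, from 100.3, 123 and 103 CPM to 244, 264 and 237 CPM. Acly, which makes cytosolic acetyl-CoA for lipid synthesis, had 403, 436 and 437 CPM against 2338, 2503 and 2254 CPM, 5.56-fold higher (log2 2.48 ± 0.09 SE, adjusted p = 4.46e-08 by edgeR), and Acaca, the next enzyme, 13.7, 15.7 and 25.9 CPM against 60.3, 67.1 and 61.9 CPM. Of 31 tested sterol and fatty acid synthesis genes, 21 were not called, and 9 of the 31 had an interval within 1.5-fold. The fatty acid desaturases Scd1 and Scd2 changed in opposite directions, 6.22-fold higher and 4.02-fold lower. Of the arginine and polyamine genes 8 of 18 were lower and 2 higher, and the 2 were the arginine transporter Slc7a2 (916, 1351 and 1320.1 CPM against 2742, 2932 and 2928 CPM) and Ass1, which regenerates arginine (19.9, 6.42 and 9.45 CPM against 33.7, 28.7 and 30.6 CPM), whose log2 change of 1.37 was 1.97 without monocyte-derived library 1. The other arginine transporter, Slc7a1, was 2.41-fold lower.

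Interferon-stimulated genes were higher for all 36 tested, with a median log2 change of 2.02. Oas2, which makes the second messenger of RNase L, had 3.09, 2.43 and 0.777 CPM in monocyte-derived and 104, 82.5 and 84.7 CPM in resident libraries, and Oas3 7.95, 4.45 and 2.14 CPM against 124, 98.7 and 119 CPM. Gbp3 and Gbp5, guanylate-binding proteins of cell defence, had 16.8, 9.65 and 10.4 CPM and 0.64, 0.809 and 0.194 CPM in monocyte-derived and 256, 269 and 249 CPM and 13.6, 13.2 and 14.1 CPM in resident libraries, and Ifit3, which binds viral RNA, 0.16, 0.405 and 0 CPM against 1.93, 1.15 and 2.74 CPM. The levels of Ifit3 were low in every library. Of the 36 genes, 14 were also higher in resident than in converted libraries (6.07% of all genes were called there in either direction), Oas2 with 41.8, 45.8 and 25.8 CPM in converted ones (adjusted p = 0.0357 by edgeR). The signalling factor Irf9 rose 1.81-fold, and the receptor chains Ifnar1 and Ifngr1 fell 2.78 and 3.86-fold. The core of the interferon-stimulated response element, GAAA, 2 bases and GAAA on either strand, was found in the RefSeq promoter (GRCm38.p6, 250 bases before to 50 after the start) of 19 of 29 members with an entry. It was in 58.3% of the members' 36 promoters and in 3.44% of all 32851, and the match is a description of the letters, not of a bound site. The 4 called members with the largest change that hold it are shown, 5′ to 3′ on the gene's strand and with the matches in capitals, to let a reader see the element in place.
Gbp5 (chr3:142496684-142496983, plus strand): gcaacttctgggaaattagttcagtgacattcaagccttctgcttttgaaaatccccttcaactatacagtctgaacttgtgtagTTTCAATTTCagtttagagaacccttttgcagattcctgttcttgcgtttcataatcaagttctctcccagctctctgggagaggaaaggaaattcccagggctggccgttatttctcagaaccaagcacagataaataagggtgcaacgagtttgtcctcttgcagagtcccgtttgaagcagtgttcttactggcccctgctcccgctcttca
Oas3 (chr5:120777610-120777909, minus strand): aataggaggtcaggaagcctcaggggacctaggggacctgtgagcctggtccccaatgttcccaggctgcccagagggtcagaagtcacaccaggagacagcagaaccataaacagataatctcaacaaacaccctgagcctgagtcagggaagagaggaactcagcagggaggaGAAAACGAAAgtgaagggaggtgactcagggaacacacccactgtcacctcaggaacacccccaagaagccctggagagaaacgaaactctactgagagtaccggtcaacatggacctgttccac
Gbp3 (chr3:142559794-142560093, plus strand): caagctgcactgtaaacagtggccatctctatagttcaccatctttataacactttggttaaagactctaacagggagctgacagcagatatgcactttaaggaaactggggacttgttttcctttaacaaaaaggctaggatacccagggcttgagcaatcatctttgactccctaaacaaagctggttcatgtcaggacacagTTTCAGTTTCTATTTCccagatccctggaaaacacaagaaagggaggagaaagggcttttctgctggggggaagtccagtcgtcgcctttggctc
Ifit3 (chr19:34583279-34583578, plus strand): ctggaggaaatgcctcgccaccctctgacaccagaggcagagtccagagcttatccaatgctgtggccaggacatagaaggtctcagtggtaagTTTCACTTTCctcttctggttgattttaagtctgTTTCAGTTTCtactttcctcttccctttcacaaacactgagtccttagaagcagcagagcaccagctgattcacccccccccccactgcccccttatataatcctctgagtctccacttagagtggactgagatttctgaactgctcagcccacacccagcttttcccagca
In Gbp5 the match begins 165 bases before the start and in Oas3 75 bases before it. In Gbp3 a pair of matches overlaps from 45 bases before the start, and Ifit3 has a pair of separate matches, the farther at 156 bases. For the resident cavity list the letters AGATAA, which GATA factors bind, were in 13.8% of members' promoters against 11.2% of all.

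Of 30 tested mitosis genes 29 were higher, and of 30 DNA replication genes 22 were higher, or 13 without resident library 2 and 13 with no filter on low counts. Mki67, a marker of dividing cells, had 15.6, 27 and 38.2 CPM in monocyte-derived and 127, 121 and 140.3 CPM in resident libraries, 4.82-fold higher. Rrm2, which supplies deoxynucleotides, had 40.2, 99 and 148 CPM against 331, 407 and 333 CPM. Both separated the groups, and both were lowest in monocyte-derived library 1. Pcna, the sliding clamp, was not called, at 60.6, 98.5 and 104 CPM against 86.5, 90.8 and 90.7 CPM (adjusted p = 0.92 by edgeR). Among D cyclins Ccnd3 and Ccnd1 were 1.68 and 1.57-fold higher, and Ccnd2 had 66.7, 23.5 and 27.9 CPM in monocyte-derived, 19.9, 18.1 and 13.5 CPM in resident and 0.698, 1.26 and 0.506 CPM in converted libraries. Its call (lower) between resident and monocyte-derived (adjusted p = 0.0238) was lost without resident library 2 or 3 and with no filter on low counts (adjusted p up to 0.115), and its log2 change of -1.20 was -0.59 without monocyte-derived library 1. The inhibitor Cdkn2c rose from 11.7, 24.6 and 28.2 CPM to 81.8, 76.9 and 74.7 CPM and Cdk6 fell from 82.2, 46.6 and 51.1 CPM to 24.3, 23.5 and 23.2 CPM. In bulk libraries, a smaller share of dividing cells and less of these transcripts in each cell cannot be told apart, which holds for every list here.

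Sensing genes were called in both directions, as were all tested genes (25.7% higher and 24.9% lower). Of 24 Toll-like and pattern receptor genes tested, 8 were higher and 7 lower (33.3% and 29.2%), near those shares. Nod1, a sensor of bacterial cell walls, had 10.9, 17.5 and 18.5 CPM in monocyte-derived and 95.8, 103 and 98.4 CPM in resident libraries, and Ly96, the partner of Tlr4, rose 2.22-fold while Tlr4 itself fell 1.34-fold. Tlr8 had 39.8, 48.6 and 53 CPM against 5.89, 7.39 and 8.86 CPM, and Tmem173, which encodes STING, 139, 73.4 and 87 CPM against 19.8, 24 and 25.5 CPM. Among inflammasome genes 10 of 21 were higher and 6 lower. Naip1, which senses bacterial secretion needles, rose from 2.56, 5.61 and 4.21 CPM to 18, 24.7 and 25.5 CPM and the sensor Nlrp3 fell from 10.2, 2.95 and 2.85 CPM to 0.055, 0.0524 and 0.0979 CPM. The Naip genes are close copies, as are the Gbp, Cd209 and class I genes named here, so reads could be shared among the members of each family. Fc and paired receptors were lower for 13 of 26 tested and higher for 6, the high-affinity receptor Fcgr1 with 28.3, 13.4 and 6.15 CPM against 0.55, 0.524 and 0.538 CPM and the lipid sensor Trem2 with 163, 284 and 216 CPM against 59.9, 36.9 and 53.3 CPM. Of 19 ectonucleotidase and purine receptor genes 7 were higher and 5 lower: the ectonucleotidases Nt5e and Entpd1, which turn extracellular ATP to adenosine, had 3.31, 0.636 and 3.3 CPM and 10.6, 32.7 and 34.7 CPM in monocyte-derived and 87.4, 117 and 85.8 CPM and 78.9, 79.8 and 83.5 CPM in resident libraries, while the UDP receptor P2ry6 had 120.2, 71.8 and 72.2 CPM against 0.385, 0.472 and 1.08 CPM. Without resident library 3 the log2 change of P2ry6 was -7.65, from -7.05. Iron and heme genes fell for 9 of 20 and rose for 3, or 5 without monocyte-derived library 2: the transferrin receptor Tfrc had 81.6, 213 and 182 CPM against 55.8, 48.2 and 58.2 CPM, while Slc11a1, the metal transporter of phagosomes, was higher, with 69.4, 168 and 133 CPM against 271, 276 and 273 CPM. Of 24 antioxidant genes known from the Nrf2 pathway, 8 were higher and 7 lower, and 5 were higher without resident library 1 or with the replicate number as a block. The shares higher and lower were 33.3% and 29.2% for this list and 36.8% and 26.3% for the purine list. Those of all tested genes were 25.7% and 24.9%.

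Ribosomal protein genes lay close to equal in both groups. Of 41 tested ribosomal protein genes, 35 were not called and 40 had an interval within 1.5-fold. Of the 6 called, 5 were lower; 2 or fewer were lower when any 1 library but monocyte-derived library 3 was left out, and 6 were higher without monocyte-derived library 2. Rplp0 had 527, 504 and 476 CPM in monocyte-derived and 507, 499 and 509.9 CPM in resident libraries (95% interval -0.15 to 0.16 on the log2 scale). Of the 12 mitochondrially encoded genes tested edgeR called 0, with 1 at an unadjusted p under 0.05, limma-voom called 0 and DESeq2 1. Among them mt-Nd4 had a log2 change of -0.67 with an adjusted p of 0.0584, and 5 of the 12 were called lower without monocyte-derived library 2 and 3 higher without library 3. The macrophage gene Cd68 had 745, 1576 and 1305 CPM against 962, 814 and 944 CPM and overlapped (95% interval -0.92 to 0.09), but was called lower without monocyte-derived library 1, with a log2 change of -0.67. Of 24 pan-macrophage genes 4 were higher, 11 lower and 9 not called.

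The monocyte-derived libraries spread more than the resident ones. Over genes with at least 10 CPM in the group, the median coefficient of variation was 12.7% in monocyte-derived (8165 genes) and 5.62% in resident libraries (8443 genes), with 239 and 3 genes above 50%. Library 1 of the monocyte-derived group had the lowest level of the 3 for Gpnmb, Mmp12, Ctsk, Lpl, Cd36, Retnla, Adgre1, Icam2 and Mki67, and the highest for Ccr2, Ly6c2, Ms4a4c, Sesn2 and Ltb4r1. Ms4a4c, a monocyte gene, had 120.1, 19.3 and 49.5 CPM, with a log2 change of -2.97 against resident libraries that was -2.10 without library 1. Fabp4, a fatty acid carrier, had 25.5, 205 and 100.3 CPM in these libraries and 128, 143 and 124 CPM in resident ones, so that its groups overlapped and it was not called. Its log2 change of 0.25 was 1.09 without library 2. Without library 1 of the group 6875 genes were called, beside 6698 with it. The replicates have no order, and these 14 genes were chosen after their values were seen. A few genes varied among resident libraries, such as Slfn4, an interferon-regulated gene, with 156, 84.4 and 90.7 CPM, and Serpinb7, a protease inhibitor, with 81.7, 143 and 79 CPM. The log2 change of Serpinb7, 10.60, was 10.01 and 11.52 without monocyte-derived libraries 1 and 3, which held few or no reads of it.

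**Figure D5:**
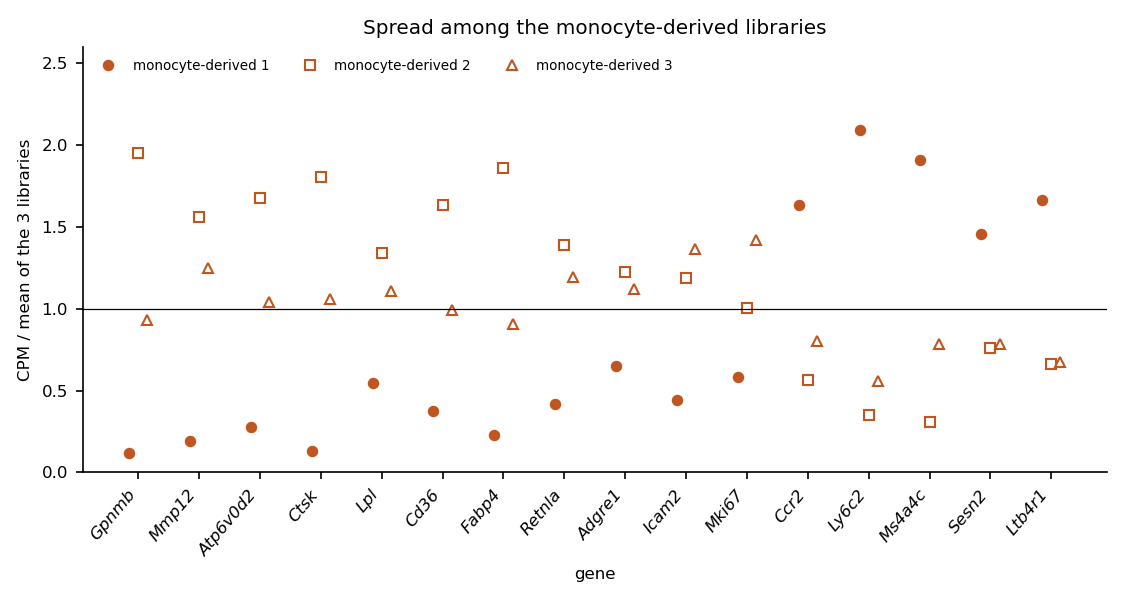
CPM of 16 genes in each monocyte-derived library divided by the mean of the 3 libraries (filled circle library 1, open square library 2, open triangle library 3), with a line at the mean. The genes were chosen after their values were seen; library 1 lies lowest for the 11 genes from Gpnmb to Mki67 and highest for the 5 from Ccr2 to Ltb4r1.

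Between resident and converted libraries 6.07% of genes were called by edgeR (803), and 621 of these were also called between resident and monocyte-derived libraries; both contrasts share the resident libraries. The number called was 1628 without monocyte-derived library 1, 361, 535 and 354 without converted library 1, 2 or 3, 295, 400.0 and 245 without resident library 1, 2 or 3, and 1364 by DESeq2. Of the 24 B-cell genes 22 were higher in resident than in converted libraries, and of the 21 immediate early genes 12. Fos, an immediate early factor, had 123, 170.5 and 205 CPM in monocyte-derived, 892, 909.5 and 932 CPM in resident and 380.2, 172 and 302 CPM in converted libraries, and Dusp1, a phosphatase induced with it, 119, 141 and 167 CPM, 803, 789 and 783 CPM and 527, 337 and 514 CPM in the same order. For these genes the resident libraries stood above both other groups without overlap.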

How the data were processed

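RNA-seq gene counts of 9 libraries were used, and the comparison is between 3 resident and 3 monocyte-derived libraries of sorted mouse peritoneal macrophages. The deposited values are whole-number read counts per gene, which the authors made with TopHat2 2.1.0, HTSeq and the GRCm38 genome, per the submitters' processing notes. For the gene annotation, strand setting and treatment of reads with several matches, the sources used here give no entry, so antisense, overlapping and near-identical genes cannot be told apart. Of 47729 identifiers per library, 47224 were matched to the annotation and 505 were not. Reads in no gene (4.02% to 5.66% of all reads counted, in genes or not) and ambiguous reads (4.47% to 4.68%) were left out. With about 15220884 to 20496258 reads in genes per library, a gene at 1 CPM rests on 15 to 20 reads.

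Genes were filtered with filterByExpr (minimum count 10, minimum total 15), scaled by TMM and tested with edgeR 4.0.16 in R 4.3.3 (robust quasi-likelihood F-test, 3 groups, 6 residual degrees of freedom, Benjamini-Hochberg over 13223 genes, threshold 0.05). CPM were computed on the scaled library sizes, and intervals cover 95%. The SE of a log2 change was its size divided by the square root of the F statistic, and its interval was built from this SE. A fold against a group with 0 reads is a lower bound set at 3 reads over the group. A count of 1 to 3 reads has an exact counting interval, and these counting intervals and bounds cover counting error only. The medians of the lists kept their values with such genes at their bound. Alternatives used DESeq2 1.42.0, limma 3.58.1, other scalings and filters, a replicate block and libraries left out in turn. The scripts were tested on simulated data. Replicate numbers come from the titles. Correlations of the deviations of same-numbered libraries were -0.0939 to 0.0651, so the numbers were not taken to pair them. Replicates of a group differed by more than sampling noise (chi-square per degree of freedom 5.99 to 103).

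Members and gene lists were chosen with earlier results of these data known. The rule for named genes took the 12 largest called changes per direction among protein-coding genes of at least 20 CPM in the higher group. The resident and monocyte-derived libraries of these genes did not overlap. The rule also took up to 3 members per list and direction, key genes and the genes with the largest spread. Further members, and the genes with the smallest adjusted p, were named after their values were seen. Promoters are from RefSeq (GRCm38.p6) and gene positions from the GRCm38 annotation.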

Additional observations from a re-analysis of the deposited data

How the results depend on the processing

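The number of genes called between resident and monocyte-derived libraries (6698 with edgeR) was 6858 with DESeq2, 6801 with limma-voom, 6688 with DESeq2's size factors, 6548 with plain library sizes, 6629 with no filter, 6443 with a stricter filter, 6252 with protein-coding genes alone and 6109 with the 6 libraries fitted alone. It was 6339 with a replicate block, although the libraries share only a number. With a library left out it was 5680 to 6875. The B-cell index as a covariate moved it to 96 genes, 74 higher and 22 lower. The cause was not tested, and the index nearly follows the division between resident and monocyte-derived libraries. Between resident and converted libraries DESeq2 called 1364 genes, 527 of them lower, beside 803 and 240.0 with edgeR, and the cause was not tested. With a library left out this count was 245 to 1628, with 221 to 877 higher and 24 to 751 lower. Of 256 named genes that were called, 237 kept the call under all 18 alternatives run for them, and 19 lost it in at least 1. The B-cell index was not among these 18. With it, 93 of all 6698 calls were kept in the same direction. The gene mt-Co1, not called in the fit of all libraries, was called higher without monocyte-derived library 3 (log2 0.41, adjusted p = 0.0224 by edgeR) and had a log2 change of -0.28 without library 1. Depth limits the folds of genes near 0 in a group, such as Gpnmb, Wnt2 and Timd2.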
